A study of Mus musculus with 6 samples.

Results

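The microRNA (miRNA) described here is mouse miR-21, which is 1 of the 690 mouse miRNAs on the array and 1 of the 226 that were bright enough to test. It was picked by its name in the scanner files, mmu-miR-21, and it was picked because earlier results of these data showed it higher in the hypertrophic zone. Its differences between zones are therefore given as a description, with no p-value. The study measured miRNAs in growth plate cartilage of the femur, taken from C57BL/6 mice aged 12 days, for which the labels name no treatment or genetic change. Cartilage was microdissected into 3 zones: the proliferative zone, where chondrocytes divide in columns, the prehypertrophic zone, where they leave the cell cycle, and the hypertrophic zone, where they enlarge next to the invading bone front. Each zone has 2 one-colour Agilent arrays, each hybridised with 100 ng of Cy3-labelled total RNA from a pool of 5 growth plates. The animals behind each pool are not named, so the spread between the 2 arrays of a zone may be partly technical.

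An miRNA is a short RNA that is cut from a hairpin and guides a silencing complex to messenger RNAs, mainly through its seed, the bases near its 5′ end. miR-21 is known for repressing Pdcd4, Spry1 and Reck, and for being induced by STAT3, AP-1 and TGF-beta or BMP signalling. It is abundant in fibroblasts, myeloid cells and osteoclasts, and it has been tied to wound repair, fibrosis and many tumours.

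The probes are named for the arm now called miR-21a-5p. The sequences below, from RefSeq (GRCm38.p6), show it with the opposite arm of its hairpin, which the array calls miR-21*, and with the 2 mouse miRNAs of the closest names. Capitals mark bases 2 to 8, the seed, and positions are counted from 1 at the 5′ end.
miR-21a-5p: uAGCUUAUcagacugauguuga
miR-21a-3p: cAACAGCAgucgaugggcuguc
miR-21b: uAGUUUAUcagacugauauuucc
miR-21c: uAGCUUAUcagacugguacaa
miR-21a-5p lies at chr11:86584120-86584141 on the minus strand. Its hairpin gene, Mir21a (gene ID 387140), spans chr11:86584067-86584158. It sits inside the gene Vmp1 (gene ID 75909, chr11:86583858-86683836, also minus strand), 209 bases from that gene's 3′ end. miR-21c, at chr8:128278188-128278208 on the minus strand, has the same seed and differs from miR-21a-5p by A16G, G18A, U19C, U20A and G21A, so that 16 of its 21 bases are the same. miR-21b, at chr3:29636768-29636790 on the plus strand, differs inside the seed by C4U and further on by G18A, G21U and A22C, so that 18 of the first 22 bases are the same. Of the 1679 mature mouse sequences listed in the RefSeq table, which is not a complete set, 2 (0.119%) carry this seed, miR-21a-5p and miR-21c. Neither miR-21b nor miR-21c has a name on this array, and whether their RNA binds the miR-21 probes was not tested.

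All 6 arrays lay on 1 slide and shared 1 scan date. Between 24.2% and 27.9% of miRNA spots were well above background, a flag that the scanner software sets against the local background and its noise. Each array was divided by its 75th percentile over the 342 probes well above background on every array, and the resulting scaled signal was raised to a floor of 12.7 scaled units before log2 was taken. Row 1 of the slide held the hypertrophic pair and the first proliferative array, and row 2 held the prehypertrophic pair and the second proliferative array.

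miR-21 was highest on both hypertrophic arrays, at a lower and almost equal level on 3 other arrays, and lowest on 1 proliferative array. Its brighter probe, spotted 10 times per array, gave scaled signals of 22.4 and 11.7 on the proliferative arrays. The prehypertrophic arrays gave 21.9 and 22.2. The hypertrophic arrays gave 43.6 and 73.9. The hypertrophic values stood clear of the other 4, whereas the first proliferative array lay slightly above both prehypertrophic ones, so these 2 zones overlapped. On the log2 scale the zone means were 4.07 ± 0.58 (SD, n = 2) in the proliferative, 4.47 ± 0.01 (SD, n = 2) in the prehypertrophic and 5.83 ± 0.54 (SD, n = 2) in the hypertrophic zone.

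**Figure D1:**
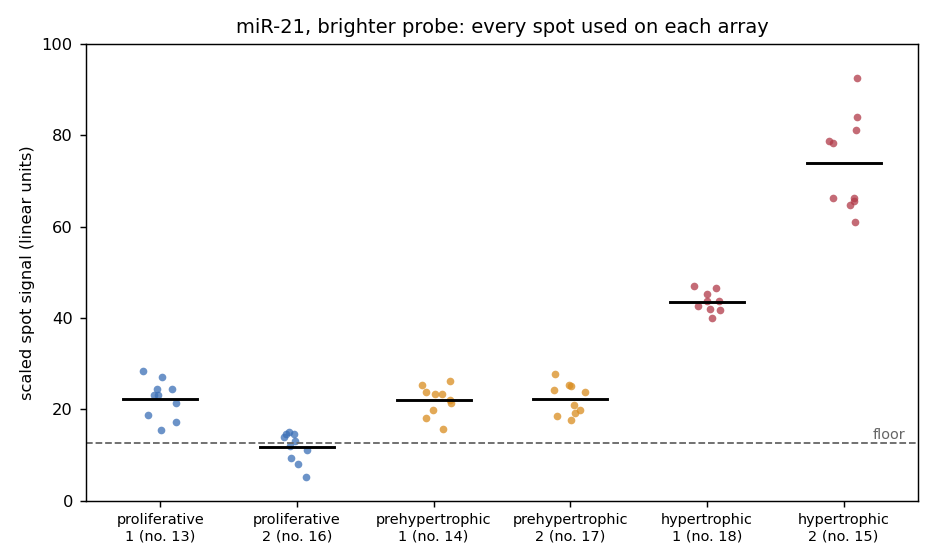
Scaled signal (linear units) of every spot of the brighter miR-21 probe that was used, by array with its title number; bars are the means over spots and the dashed line is the floor of 12.7. The spots of the hypertrophic arrays lie between 39.9 and 92.7, above every spot of the other arrays, and those of the second proliferative array lie between 5.28 and 15.1, around the floor.

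The 2 arrays of a zone differed by 1.91-fold in the proliferative, 1.01-fold in the prehypertrophic and 1.69-fold in the hypertrophic zone. With the floor the proliferative gap was 0.82 on the log2 scale, and without it 0.94. The floored gap compares with a median gap of 0.44 over the 226 tested miRNAs, of which 87.6% had a smaller one. The hypertrophic gap of 0.76 compares with a median of 0.28, and 94.7% had a smaller one. The prehypertrophic gap of 0.02 was among the smallest, with 8.41% of the tested miRNAs below it. miR-21 was thus more variable than most between both proliferative and both hypertrophic arrays, and the large gaps lie in the zones that give the largest difference.

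Spots of one probe on one array are repeats of a single hybridisation, and they show how well each array's level was measured. On the first hypertrophic array the 9 spots used ran from 39.9 to 46.9, with a coefficient of variation of 5.29%. On the second they ran from 60.9 to 92.7, with 14.2%. The first proliferative array ranged from 15.5 to 28.5, and the prehypertrophic arrays from 15.7 to 26.2 and from 17.6 to 27.7. On the second proliferative array they ran from 5.28 to 15.1, and the coefficient of variation was the widest of the 6 arrays, 27.9%. The spots of the 2 hypertrophic arrays did not overlap each other, so the gap between those arrays exceeded the spread of repeated spots. The spots of the 2 proliferative arrays did not overlap either.

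Detection of the brighter probe was complete on 5 arrays and failed the stricter flag on 1. Every spot used was well above background on the first proliferative array (10 of 10), both prehypertrophic arrays (10 of 10 each) and both hypertrophic arrays (9 of 9 and 10 of 10). On the second proliferative array 0 of 10 spots were. All of its spots there still passed the scanner's weaker test, positive and significant against the local background. Before scaling, its mean processed signal on that array was 8.80, which lies 3.75 SDs of the negative-control spots above their mean. That distance was 9.0 on the first proliferative array, 10.5 and 11.7 in the prehypertrophic zone, then 21.2 and 42.4 in the hypertrophic zone. The scanner's summary flag called miR-21 detected on all 6 arrays, with a total signal of 13.6 ± 2.10 (the scanner's own error) and 5.96 ± 1.89 in the proliferative, 14.9 ± 2.37 and 15.7 ± 2.42 in the prehypertrophic and 29.4 ± 3.44 and 72.3 ± 7.18 in the hypertrophic zone. miR-21 was near the detection limit in 1 of the 6 arrays, and its value there is set by the floor. Among the tested miRNAs, 186 were well above background on all 6 arrays and 19, miR-21 included, on exactly 5.

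miR-21 has a second, dimmer probe, also spotted 10 times per array, and it was close to background throughout. Its mean processed signal was -1.45 and -2.57 on the proliferative arrays. It was -0.249 and -0.388 on the prehypertrophic arrays. On the hypertrophic arrays it was 3.11 and 11.6. Values below 0 mean that the spots were dimmer than the background subtracted from them. Only 1 of 10 spots on the second hypertrophic array was well above background, and no spot on any other array. The weaker test was passed by 6 of 9 spots on the first and 10 of 10 on the second hypertrophic array, and by 0 on the other 4 arrays. The order of the arrays was close to that of the brighter probe (Pearson's r 0.998 and Spearman's rho 0.943 over 6 arrays, as a description; both probes share the arrays, the RNA and the scan). Without the second hypertrophic array r was 0.987 over 5 arrays. Both probes were highest on the same 2 arrays and lowest on the same proliferative array, but the dimmer probe lies below the floor on all 6 arrays, so that the size of the rise rests on 1 probe. This is not unusual here, since 33 of the 226 tested miRNAs (14.6%) have several probes of which 1 alone was well above background on any array.

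**Figure D2:**
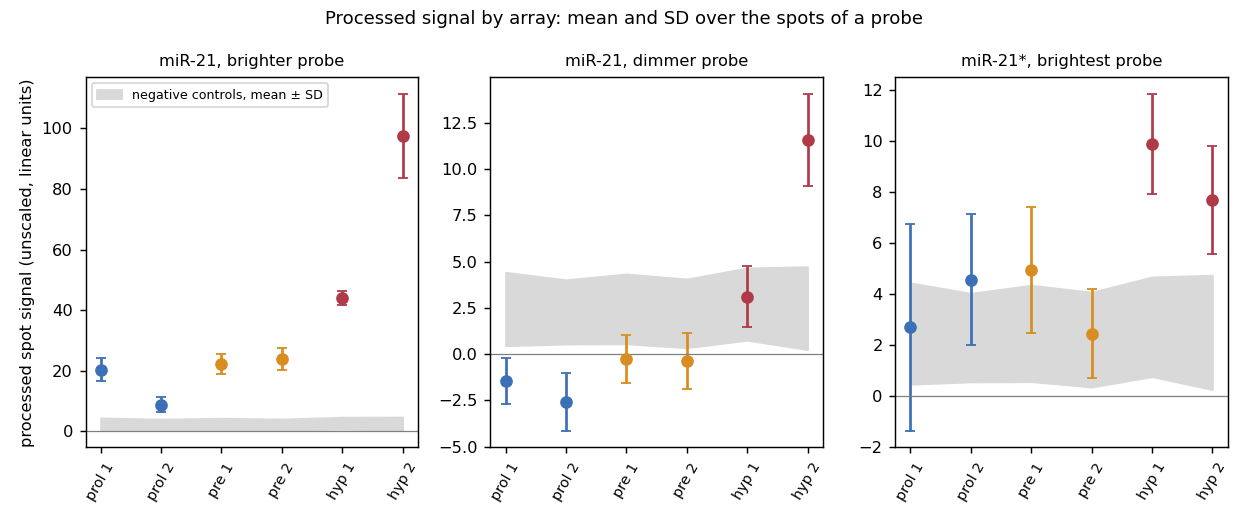
Unscaled processed signal (linear units) by array for the brighter and the dimmer miR-21 probe and the brightest miR-21* probe; points are means and bars SDs over the spots of a probe, and the grey band is the mean ± SD of the negative-control spots. The brighter miR-21 probe rises from 8.80 to 97.5 across the arrays, while the dimmer probe leaves the band upwards only on the second hypertrophic array, at 11.6.

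miR-21 was higher in the hypertrophic than in the proliferative zone by 1.75 on the log2 scale, a 3.37-fold difference of zone means, with an SE of 0.46 from its own spread over the 6 arrays (3 residual degrees of freedom). It ranks 7 among the 226 tested miRNAs by this difference. The 4 array-by-array differences of these zones were 0.96, 1.72, 1.90 and 2.66, taken without the floor, all in one direction. The median difference of all tested miRNAs was -0.00, so miR-21 lay 1.76 above it.

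Going by the zone means, most of this step fell between the prehypertrophic and the hypertrophic zone. There the difference was 1.36 on the log2 scale, or 2.57-fold (SE 0.46), with rank 4 of 226, and the array-by-array differences were 0.97, 0.99, 1.73 and 1.75. Each spot used on either hypertrophic array was brighter than each spot on either prehypertrophic array. The median of all tested miRNAs was -0.04, and miR-21 lay 1.40 above it.

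Between the proliferative and the prehypertrophic zone the difference was 0.39, or 1.31-fold, which is smaller than its SE of 0.46. Here the array-by-array differences split by proliferative array. Taken without the floor, they were -0.03 and -0.01 against the first, and 0.91 and 0.93 against the second. The direction of this step therefore hangs on the second proliferative array, the one where miR-21 was not well above background, and without that array the difference was -0.02. In order of level the hypertrophic zone came first, and the prehypertrophic and proliferative zones below it did not differ beyond their spread. The median of all tested miRNAs was -0.14 in this contrast, and miR-21 lay 0.53 above it.

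The sample titles carry numbers that form 2 runs with 1 array per zone each, and no label calls a run a batch. Within 13 to 15 miR-21 changed by -0.03 from the proliferative to the prehypertrophic array and by 1.75 from there to the hypertrophic one. Within 16 to 18, taken without the floor, it changed by 0.93 and then by 0.97. The hypertrophic array was highest in both runs, and the whole span was 1.72 in one and 1.90 in the other. The intermediate array differed: it was level with the proliferative array in the first run and midway in the second.

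Slide row can be held fixed for 2 of the 3 comparisons. In row 1 the hypertrophic arrays exceeded the first proliferative array by 0.96 and 1.72. In row 2 the prehypertrophic arrays exceeded the second proliferative array by 0.91 and 0.93, taken without the floor. No hypertrophic array shares a row with a prehypertrophic one, so that for this pair zone and row cannot be told apart except through the proliferative arrays. With row as a block, on the floored values, the hypertrophic minus proliferative difference was 1.34 (SE 0.46) and the prehypertrophic minus proliferative one 0.80. The hypertrophic minus prehypertrophic one was 0.54 (SE 0.66), smaller than its SE. It takes in the floored gap of 0.82 between the proliferative arrays. The 1.34 equals the difference without the second proliferative array, and the 0.80 that without the first. The block is thus no separate check from leaving out 1 array.

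The rise to the hypertrophic zone kept its direction when any single array was left out. The hypertrophic minus proliferative difference then ran from 1.34, without the second proliferative array, to 2.16, without the first. Without the first hypertrophic array it was 2.13, and without the second 1.37. The hypertrophic minus prehypertrophic difference ran from 0.98, without the second hypertrophic array, to 1.74, without the first. No single array made the hypertrophic level drop to that of the other zones, but the size of the rise depended on which array was removed.

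**Figure D3:**
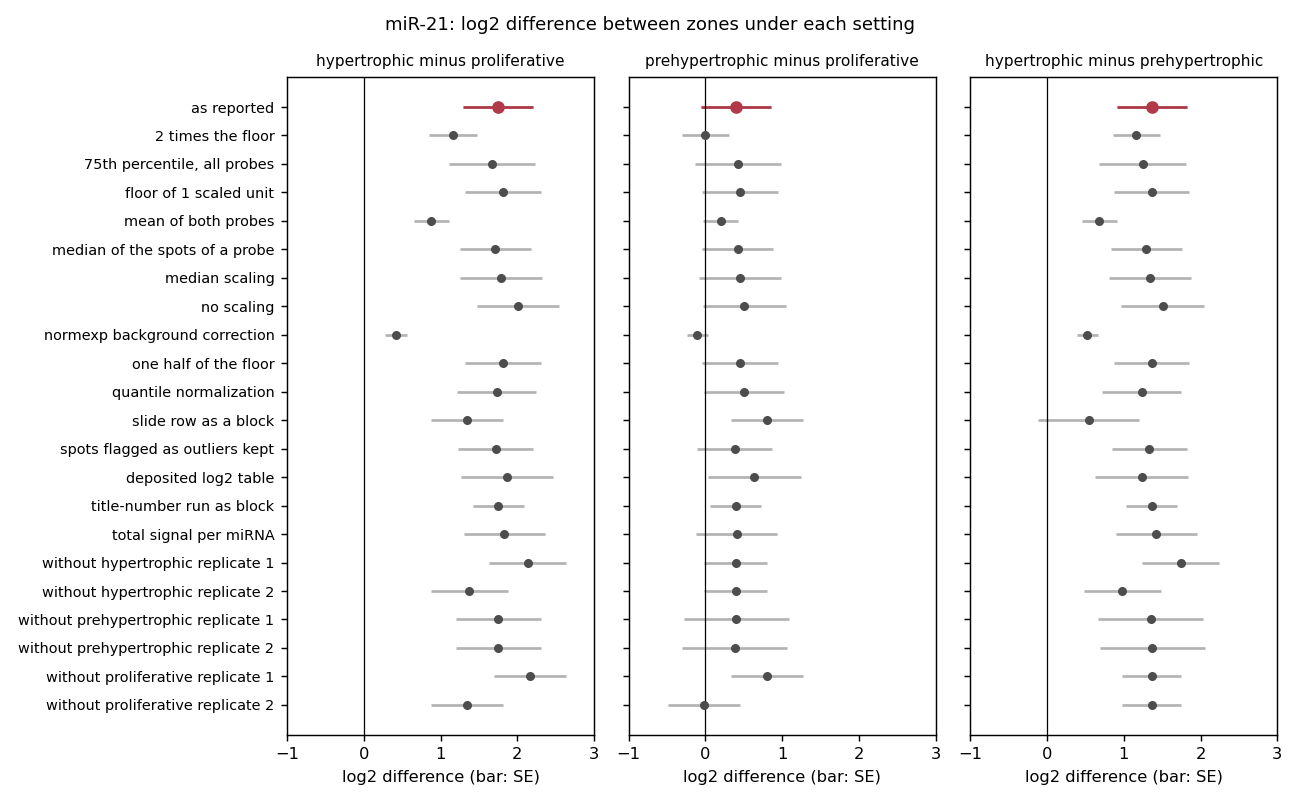
Difference of miR-21 between zones on the log2 scale under each way of processing and with each array left out; bars are the SE of miR-21's own fit. Hypertrophic minus proliferative lies between 0.42 and 2.16 and hypertrophic minus prehypertrophic between 0.52 and 1.74, whereas prehypertrophic minus proliferative spans -0.10 to 0.80 and crosses 0.

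Scaling moved the rise little. With the 75th percentile over all probes, the median, quantile normalisation and no scaling at all, the hypertrophic minus proliferative difference was 1.67, 1.79, 1.73 and 2.01. Relative to the median of all tested miRNAs, which itself shifted by 0.46 without scaling, it was 1.67, 1.68, 1.72 and 1.56. In the authors' deposited log2 table, which takes the total signal per miRNA and subtracts a constant from each array, miR-21 stood at -0.63 and -1.68 in the proliferative, -0.56 and -0.48 in the prehypertrophic and 0.19 and 1.23 in the hypertrophic zone. That table has the same 2 arrays on top and the same one at the bottom, and a difference of 1.87 between the outer zones. The treatment of low signals mattered more. Doubling the floor, which lifts the proliferative and prehypertrophic arrays to one level, gave 1.16. A different background correction, normexp with an offset of 50 added to every signal, gave 0.42.

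The opposite arm of the same hairpin, miR-21*, has 4 probes of 5 spots each and was well above background on no array, so it was not tested. Its brightest probe had mean processed signals of 2.69 and 4.56 in the proliferative, 4.93 and 2.44 in the prehypertrophic and 9.88 and 7.67 in the hypertrophic zone. All 5 spots passed the weaker test on each hypertrophic array, against 2 and 4 spots on the proliferative and 4 and 2 on the prehypertrophic ones. The scanner's summary called miR-21* detected on the first hypertrophic array alone, at a total signal of 3.30 ± 0.946. Before scaling its 2 highest arrays were thus the hypertrophic ones, in the opposite order to miR-21. After scaling this no longer held, since the second proliferative array (6.05 scaled units) lay above the second hypertrophic one (5.81). These signals are too close to background for a fold change. miR-590-5p, the miRNA listed with miR-21 for its seed, was below background on every array.

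Other miRNAs linked to inflammation were looked at beside miR-21, from a list of 7. Of these, 5 were well above background on no array. Among them were miR-155 and miR-146a, the latter known as a brake on innate immune signalling. Of the 2 that were tested, 1 rose and 0 fell from the proliferative to the hypertrophic zone, where 14.6% of all tested miRNAs were called, 5.75% upward and 8.85% downward. In the prehypertrophic against proliferative comparison 0 of the 2 passed, beside 2.21% of all tested miRNAs, every one of them upward. The one that rose between the outer zones is miR-181b, a repressor of importin-alpha3 and so of NF-kappaB signalling. Its scaled signals were 53.6 and 70.5 in the proliferative, 84.4 and 132 in the prehypertrophic and 199 and 237 in the hypertrophic zone. The 3 zones did not overlap, and the outer ones differed by 1.82 on the log2 scale (3.53-fold, SE 0.30, limma adjusted p = 0.00271). The difference stayed between 1.62 and 2.02 when any single array was left out. The call was lost without the first or second hypertrophic array and without the first proliferative array. miR-221, a repressor of the cell-cycle inhibitor p27, had scaled signals of 36.7 and 29.8 in the proliferative, 25.8 and 33.6 in the prehypertrophic and 16.8 and 19.9 in the hypertrophic zone. Its difference of -0.86 between the outer zones did not pass (limma adjusted p = 0.0565).

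The list linked to fibrosis and TGF-beta holds 10 miRNAs, of which 6 were well above background on no array. Among them were miR-143 and miR-145, miRNAs of smooth muscle. Of the 4 tested, 0 passed in any comparison by limma, while 2 had an unadjusted p below 0.05 in the hypertrophic against proliferative comparison, 0 in the prehypertrophic against proliferative one and 2 in the hypertrophic against prehypertrophic one. Over all 226 tested miRNAs such an unadjusted p was found for 59, 29 and 33. Their median difference was -0.67 between the outer zones, against -0.00 for all tested miRNAs. miR-29a, a repressor of collagen genes, gave scaled signals of 29.5 and 8.25 in the proliferative, 22.0 and 18.3 in the prehypertrophic and 22.1 and 34.4 in the hypertrophic zone. Like miR-21 it was well above background on 5 arrays and lowest on the second proliferative one, but its difference of 0.51 did not pass (limma adjusted p = 0.53). miR-214, miR-199a-5p and miR-199a-3p, all known in mesenchyme, had differences of -0.75, -0.72 and -0.62, with limma adjusted p = 0.0779, 0.159 and 0.206. The difference of miR-199a-3p was -0.95 without the second proliferative array, and the same with slide row as a block. Without the first proliferative array it was -0.29.

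Of the markers of the tissue and its neighbours, miR-451 and miR-126-3p rose from the proliferative to the hypertrophic zone, as described here with the rest, and their part in the level of miR-21 was not tested. All 4 chondrocyte miRNAs (both arms of miR-140 and both of miR-455) were well above background on all 6 arrays, and their summed scaled signal was 6461 to 10367 in the proliferative, 6824 to 6922 in the prehypertrophic and 3910 to 4912 in the hypertrophic zone. None of the 4 passed the test by limma, while 3 had an unadjusted p below 0.05 between the outer zones, beside 33 called and 59 with such an unadjusted p among all 226. Between these zones miR-140, miR-140* and miR-455 differed by -0.76, -0.98 and -0.78, and miR-455* by 0.37 the other way. miR-455* gave 28.0 and 24.8 scaled units in the proliferative, 46.5 and 49.1 in the prehypertrophic and 29.1 and 39.9 in the hypertrophic zone. miR-140* had the largest signal of the 4 on every array, so the sum mostly follows it. Without the second proliferative array the differences of miR-140 and miR-140* were -1.12 and -1.37, and without the first they were -0.40 and -0.59. Slide row as a block gave the same values as leaving out the second proliferative array. It is no separate check, because the hypertrophic arrays share their row with the first proliferative array alone. Of 7 erythroid and blood miRNAs, 4 were well above background on no array, and the summed signal was 26.8 to 41.1, 45.2 to 47.3 and 262 to 290 in the same order of zones. The called member was miR-451, a red-cell miRNA, with scaled signals of 13.8 and 9.77 in the proliferative, 28.6 and 26.7 in the prehypertrophic and 226 and 254 in the hypertrophic zone. It made up most of the hypertrophic sum, while on the second proliferative array miR-486 (18.1) and miR-223 (13.2) had the larger signals. The levels of miR-451 were log2 3.79 and 3.66 in the proliferative, 4.84 and 4.74 in the prehypertrophic and 7.82 and 7.99 in the hypertrophic zone (hypertrophic minus proliferative 4.18, limma adjusted p = 1.91e-06). Not every listed member followed it. miR-144 was below background on all 6 arrays. miR-486, which was not tested, gave 0.09 and 18.1 scaled units in the proliferative, 0.93 and 8.74 in the prehypertrophic and 16.2 and 4.55 in the hypertrophic zone. The leukocyte markers miR-142-3p, miR-142-5p and miR-150 were well above background on no array. miR-223, a miRNA of granulocytes and other myeloid cells, was well above it on 0 proliferative, 1 prehypertrophic and 2 hypertrophic arrays. It was at least 1.61-fold higher in the hypertrophic than in the proliferative zone (limma adjusted p = 0.0636). Since miR-223 entered the test through the hypertrophic zone alone, this p-value does not support the direction. The endothelial miR-126-3p was below background outside the hypertrophic zone and had scaled signals of 34.7 and 47.2 in it, at least 2.75-fold above the proliferative zone (limma adjusted p = 0.00221) and at least 3.15-fold above the prehypertrophic zone (limma adjusted p = 0.00522), a comparison in which 1.33% of all tested miRNAs were called. It entered the test through the 2 hypertrophic arrays alone, and the floor held its other 4 arrays at one value, so these p-values leave the spread there unmeasured and do not support the direction. With slide row as a block the call against the prehypertrophic zone was lost (limma adjusted p = 0.101). Without the first or second hypertrophic array neither call held, with limma adjusted p = 0.0577 and 0.116 against the proliferative and 0.0866 and 0.233 against the prehypertrophic zone. The partner arm, miR-126-5p, never passed that flag. The "at least" folds set the mean of the brighter zone against the lowest signal that counted as well above background. Neither miR-204 nor miR-211, listed in connection with bone and osteoblasts, was well above background on any array. This does not show whether bone cells were present. Of 5 skeletal muscle miRNAs 4 were not either, and the fifth, miR-208b, differed by -0.54 (limma adjusted p = 0.23). In pooled tissue a change in the number of cells of a type and a change in RNA per cell cannot be told apart.

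The miRNAs whose log2 scaled signal followed miR-21 most closely over the 6 arrays were found by Pearson's r against each of the other 225 tested miRNAs. These correlations describe 6 points that share one slide, one scan date and one scaling. The 8 highest were miR-451 (r 0.93), miR-126-3p (0.93), miR-692 (0.92), miR-181a (0.92), miR-223 (0.92), miR-149 (0.87), miR-181b (0.84) and miR-183 (0.84). Leaving out 1 array at a time, r of miR-451 stayed between 0.90 and 0.96, while that of miR-181b went as low as 0.73. 3 of the 8 are the blood and endothelial markers above, and 2 are the miR-181 pair. miR-181a had log2 signals at the floor of 3.66 on both proliferative arrays, 4.58 and 4.76 on the prehypertrophic and 5.56 and 6.12 on the hypertrophic arrays. Unlike miR-21 it separated the prehypertrophic from the proliferative arrays. miR-692 and miR-183 lay at or just above the floor on all 6 arrays, so that their r rests on small changes. miR-126-3p, miR-692, miR-223 and miR-183 entered the test through the hypertrophic zone alone. The floor held miR-126-3p and miR-183 at one value on every array of the other zones. The high r of these miRNAs with miR-21 was thus partly set by the filter and the floor. With another scaling 7, 6, 7 and 4 of the 8 were again among the 8 highest, the last with no scaling.

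**Figure D4:**
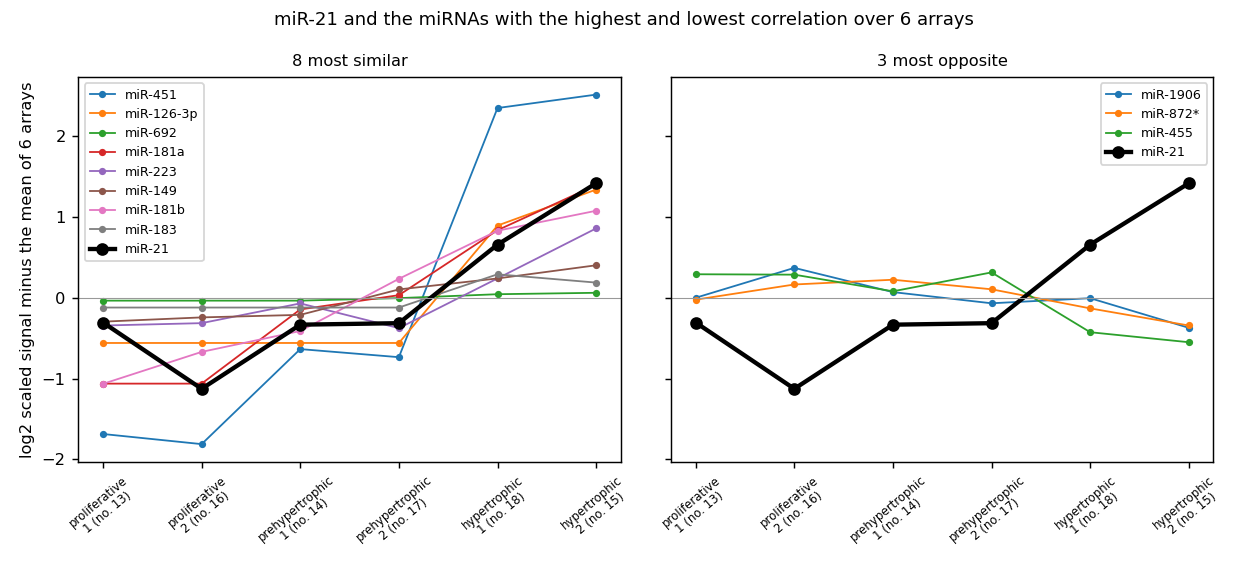
Log2 scaled signal minus its mean over the 6 arrays, by array, for miR-21 (black) with the 8 miRNAs of the highest correlation (left) and the 3 of the lowest (right). The hypertrophic arrays are the highest 2 for miR-21 and the 8 miRNAs on the left, with miR-451 rising most, from 3.66 to 7.99 before centring. The 8 were picked for this likeness, and miR-126-3p, miR-692, miR-223 and miR-183 entered the test through the hypertrophic zone alone.

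The lowest correlations were those of miR-455 (r -0.92), miR-872* (-0.91) and miR-1906 (-0.89). miR-455, a chondrocyte miRNA encoded in Col27a1, had log2 signals of 9.70 and 9.69 in the proliferative, 9.49 and 9.72 in the prehypertrophic and 8.98 and 8.86 in the hypertrophic zone. Its hypertrophic arrays lay below the other 4, and r stayed between -0.90 and -0.41 under the other scalings. For miR-872* and miR-1906 the sign turned with the scaling, with r up to 0.23 and 0.31.

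Primary hairpins that carry the letters CAGAC are known to be processed faster when receptor SMADs bind them, and miR-21 is the best-known case. In miR-21a-5p the letters start at position 9, just after the seed, as the capitals show here.
miR-21a-5p: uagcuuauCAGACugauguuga
CAGAC, searched on the RNA strand, stands in 28 of 1679 mature mouse sequences (1.67%) and in 80 of 1005 hairpins (7.96%). Among the 226 tested miRNAs the mature sequences of 3 hold it, miR-21, miR-199a-5p and miR-686, and those of 169 do not. The names of 52 had no match in the sequence table, and for 2, miR-214 and miR-429, the arm could not be settled. Tested miRNAs whose hairpin holds CAGAC only outside the mature sequence were not counted here. miR-686 was flat, with log2 signals of 4.12 and 4.20 in the proliferative, 4.57 and 4.11 in the prehypertrophic and 4.39 and 4.02 in the hypertrophic zone, and its difference of 0.05 between the outer zones did not pass (limma adjusted p = 0.936). The other 2 holders did not move together: miR-21 was 1.75 higher and miR-199a-5p 0.72 lower on the log2 scale, the latter short of the threshold.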

How the data were processed

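Spot brightness was taken from the deposited scanner files as a linear intensity: per the file headers, Feature Extraction 10.7.3.1 read the scans, subtracted a background and marked outlier spots. A table of log2 values was deposited too. It equals log2 of the total signal per miRNA (signals under 1 set to 1) minus a constant per array, with departures of at most 1.28e-06. Its column medians were -4.40, -4.25 (proliferative), -4.46, -4.45 (prehypertrophic), -4.69 and -4.94 (hypertrophic), and its scale, centring and direction are thereby known. Array grid coordinates follow mm9 per the file headers, and all coordinates printed are from GRCm38.p6.

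Control spots and outlier flags (384 to 515 of 13800 miRNA spots per array) were dropped; none was saturated. Spots of a probe were averaged, arrays scaled to the 75th percentile over probes well above background on all arrays, floored at 12.7 scaled units, and log2 taken. The brightest probe stood for its miRNA, and the test took in 226 miRNAs that passed the background flag on each array of 1 zone or more. Contrasts were fitted on all 6 arrays by lmFit and eBayes of limma 3.58.1 (R 4.3.3); the Benjamini-Hochberg adjustment ran per contrast and 0.05 was the threshold. The fit called 33 miRNAs in hypertrophic against proliferative, 5 in prehypertrophic against proliferative and 3 in hypertrophic against prehypertrophic. It was tested on simulated data.

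miR-21, the lists and the tests were chosen with earlier results of these data known. Named are miR-21, the list members, the 8 highest and 3 lowest correlations with miR-21, and tested miRNAs holding CAGAC. Alternatives covered scaling, background, floor, probe and spot summary, filter, blocks and each array left out. Only 2 arrays per zone limit the precision.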

Additional observations from a re-analysis of the deposited data

How the results depend on the processing

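The 2 proliferative arrays have an SD of 0.58 on the log2 scale, and on the second miR-21 is near background. Its hypertrophic minus proliferative difference of 1.75 was 1.16 with 2 times the floor, 0.88 as the mean of both probes and 0.42 with normexp. Its hypertrophic minus prehypertrophic difference of 1.36 was 0.68 with that mean, 0.52 with normexp and 0.54 with slide row as a block. The prehypertrophic minus proliferative difference of 0.39 reversed to -0.10 with normexp and to -0.017 without the second proliferative array. The cause was not tested. Leaving out 1 array, where a zone's lone array is assumed to vary like the other zones, gave 1.34 to 2.16, 0.98 to 1.74 and -0.02 to 0.80 for the differences in the order above.

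The title-number run as a replicate block left the 3 differences at 1.75, 0.39 and 1.36 (SE 0.33). No label pairs the arrays. With it 40, 6 and 5 miRNAs were called.

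Of all tested miRNAs, 33 were called in hypertrophic against proliferative (13 higher, 20 lower). This became 8 with 2 times the floor, 20 with the mean of all probes, 1 with no filter and 20 in the deposited table (13 higher, 7 lower). By scaling it was 11 with the 75th percentile over all probes (10 higher, 1 lower), 12 with the median (11 higher, 1 lower), 18 with quantile normalisation (11 higher, 7 lower) and 15 without scaling (15 higher, 0 lower). Without 1 array it ran from 1 to 45, the 1 without the second hypertrophic array, 2 without the first and 13 without the first proliferative array. For prehypertrophic against proliferative, 5 were called. By limma this became 0 with 2 times the floor (24 at an unadjusted p below 0.05), 3 with either the 75th percentile over all probes or the median, 9 with a floor of 1 scaled unit, 1 without scaling, 8 with the floor divided by 2, 10 in the deposited table and 8 with the total signal per miRNA. With no filter limma called 0 (31 at an unadjusted p below 0.05). Without 1 array it ran from 0 to 10: 0 without either hypertrophic array (24 unadjusted by limma each), 3 without the second prehypertrophic and 10 without the second proliferative one. For hypertrophic against prehypertrophic, 3 were called. This became 1 with 2 times the floor, the mean of all probes, no filter or slide row as a block, and 5 with a floor of 1 scaled unit, no scaling or the title-run replicate block. Without 1 array it ran from 1 to 3, the 1 without either hypertrophic array.

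The normexp planned on mean signals was not run. Normexp on median signals and the floor of 1 scaled unit were added, and the settings read for the list members, after seeing the data. The hypertrophic minus proliferative call of miR-181b was also lost with 2 times the floor (limma adjusted p = 0.0777) and with no filter (0.338), that of miR-451 with none, and that of miR-126-3p with the same settings as miR-181b (0.154 and 0.171). Against the prehypertrophic zone the call of miR-126-3p was also lost with 3 other scalings (0.0622 to 0.0865), the mean of probes (0.0568), 2 times the floor (0.376) and no filter (0.528). Some members short of the threshold between the outer zones passed elsewhere by limma. With the title-run replicate block these were miR-140* (limma adjusted p = 0.0388), miR-455 (0.0324) and miR-223 (0.0417). As miR-223 entered the test through the hypertrophic zone alone, its value does not support the direction. Under other settings miR-140*, miR-455, miR-221 and miR-214 passed. With slide row as a block miR-140 and miR-199a-3p passed too. That block gives the same differences between the outer zones as leaving out the second proliferative array.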
